A study of Mus musculus with 6 samples.

Results

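Respiratory complex I, NADH:ubiquinone oxidoreductase, was followed through its nuclear genes in long-term haematopoietic stem cells (LT-HSCs) of mice labelled Zcchc8 KO and of wild-type mice. The genes were taken by symbol, as all rows of the expression table that start with Nduf and do not contain -ps. This gave 46 of 14986 genes, of which 44 are annotated as coding and 2, Ndufb4c and Ndufs6b, as processed pseudogenes, that is intronless copies of a messenger RNA. Polyadenylated RNA was sequenced from 3 libraries labelled Zcchc8 KO and 3 labelled wild type (WT), each made with 500 pg of amplified cDNA from 1500 cells sorted from bone marrow after lineage depletion. Zcchc8 encodes a core protein of the NEXT complex, an adaptor that directs unstable transcripts of the nucleus to the RNA exosome, and the comparison addresses what its loss does to the transcripts of these cells. The sources used here do not give the knockout allele, any Cre driver, the age of the mice or the gate of the sort, and nothing in the labels says that the libraries of a group came from separate animals, so p-values measure the spread between these libraries, which may be technical.

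Complex I is the entry point of electrons from NADH into the mitochondrial respiratory chain and pumps protons across the inner membrane as it passes those electrons to ubiquinone. Its peripheral arm is made of the N module, which oxidises NADH, and the Q module, which reduces ubiquinone, and its membrane arm carries the proton channels. The core of the membrane arm is encoded by mitochondrial DNA and is not analysed here, while the nuclear genes encode the catalytic core of the peripheral arm, the accessory subunits of both arms and the factors that assemble them. Long-term stem cells in marrow are known for a low reliance on respiration, which rises as they leave quiescence and differentiate.

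None of the 46 complex I genes passed the test of KO against WT, in which 27 of the 11837 genes tested passed, or 0.228%. The test was limma on log2(FPKM + 1), where FPKM is the number of reads scaled by gene length and library size, with Benjamini-Hochberg adjustment over all tested genes and a threshold of 0.05. All 46 genes had a mean of at least 1 FPKM and were tested. By value 34 of the 46 were higher in KO and 12 lower, with a median log2 change of 0.13, while among all tested genes 50.2% were higher and the median was 0.00. The genes tested have a lower median level than the complex I genes. With a filter of 5 FPKM in place of 1, 33 of 44 complex I genes were higher with a median of 0.13, beside 52.9% and 0.02 over all genes. At an unadjusted p of 0.05, 4 complex I genes were higher and 0 lower, where 4.87% of all tested genes were higher and 4.33% lower. The 3 KO libraries lay wholly above the 3 WT libraries for 5 genes and wholly below for 0, where these shares over all tested genes were 8.24% and 6.99%. Without KO library 2 or KO library 3 the 4 genes at an unadjusted p of 0.05 were 2. Without 1 library, the 27 passing genes were 11 to 19, with 11 in the absence of KO library 3 or WT library 3, and still held no complex I gene. On recovered read counts, limma with voom likewise passed 0 complex I genes, with 2 higher and 0 lower at an unadjusted p of 0.05. The smallest adjusted p of a complex I gene was 0.33.

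Several of these genes have intronless copies elsewhere in the genome, and 4 pairs of a gene and its copy are shown early because the copies carry a large part of the signal of the subunits concerned. Ndufs6, a zinc-binding subunit of the N module, lies at chr13:73319838-73328542 on the minus strand (GRCm38, the assembly of mm10, which the submitters' processing notes name). Its copy Ndufs6b lies at chr7:81161397-81161744, has 348 bases and is 90.3% identical over 371 aligned positions of the coding sequence. These positions include gaps, which count as differences. Ndufs3, a core subunit of the Q module, lies at chr2:90894634-90904827, and its copy Gm12251 at chr11:58392769-58393560 is 98.6% identical over 792 bases. The 120 bases below are coding sequence from GENCODE M21 and stand 60 to each side of an exon junction of the parent gene, which is interrupted there by an intron in the genome, whereas the copy runs on. The junction with the fewest differences was taken for each pair, and capitals mark the bases that differ between parent and copy.
Ndufs6: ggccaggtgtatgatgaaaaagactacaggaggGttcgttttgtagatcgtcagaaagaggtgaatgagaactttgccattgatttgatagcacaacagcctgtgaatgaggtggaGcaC
Ndufs6b: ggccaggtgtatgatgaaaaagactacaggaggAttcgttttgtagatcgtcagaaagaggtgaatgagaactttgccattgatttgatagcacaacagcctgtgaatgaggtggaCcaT
Ndufs3: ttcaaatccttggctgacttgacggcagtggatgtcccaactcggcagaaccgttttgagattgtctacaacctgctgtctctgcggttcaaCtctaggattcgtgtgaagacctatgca
Gm12251: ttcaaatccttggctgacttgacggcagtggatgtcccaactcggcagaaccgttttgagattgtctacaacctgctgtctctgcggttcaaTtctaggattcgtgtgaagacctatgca
The stretches differ at 3 bases for Ndufs6 and at 1 base for Ndufs3. The same kind of stretch of Ndufa12 (chr10:94198720-94221443), an N module subunit, and of its copy Ndufa12-ps (chr5:130188395-130188796, 99.5% identical over 402 bases) has 0 differences. Ndufb4c (chr15:73809507-73809896) is 100% identical to the coding sequence of the distal arm subunit gene Ndufb4 over 390 bases, and Ndufb4 itself is not in the table used here. GENCODE M21 lists Ndufb4c as a processed pseudogene, and RefSeq lists it as coding. Reads that lie wholly within bases shared by a gene and its copy cannot be told apart, and how the authors treated reads with several matches is not given in the sources used here. The submitters' processing notes name Bowtie2, which does not split reads over introns, so a read across such a junction matches without a break only in the copy. The part of this in the division of reads between gene and copy was not tested.

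The share of the reads of a pair that was counted on the copy was high in both genotypes. Of the reads of Ndufs6 and Ndufs6b, 83.2%, 79.6% and 84.1% were on the copy in the KO libraries and 87.5%, 80.9% and 82.8% in the WT libraries. For Ndufs3 and Gm12251 the share on the copy was 90.5%, 84.7% and 83.0% in KO and 81.0%, 82.9% and 78.4% in WT. All 3 KO libraries were above all 3 WT libraries for Ndufs3, by as little as 83.0% beside 82.9%, while for Ndufs6 the groups overlapped. For Ndufa12 and Ndufa12-ps the copy took 49.8%, 48.7% and 48.3% in KO and 48.4%, 46.9% and 44.5% in WT, again with overlap.

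Summed over gene and copy, the pairs gave levels that do not depend on how the counted reads were divided between them. Any reads left uncounted because of several matches would be missing from these sums. A further copy of Ndufs3, Gm11927, averaged 1.84 FPKM in KO and 2.70 FPKM in WT and is left out of the sum. The sum for Ndufs6 and Ndufs6b was 195.0, 160.9 and 165.9 RPM (reads scaled to library size) in KO and 133.9, 189.0 and 159.4 in WT. The sum for Ndufs3 and Gm12251 was 223.7, 260.8 and 257.5 RPM in KO and 288.3, 255.9 and 181.7 in WT, so that the lowest and the highest library were both WT. For Ndufa12 and Ndufa12-ps the sum was 344.6, 278.8 and 294.9 RPM in KO and 252.7, 217.9 and 273.0 in WT, with no overlap between the groups. Ndufa12-ps itself stood at 427.1, 338.0 and 354.0 FPKM in KO and at 304.3, 254.4 and 302.3 FPKM in WT, and did not pass the test (limma adjusted p = 0.34). These pairs were picked after their values were seen, and the sums were not tested.

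**Figure D1:**
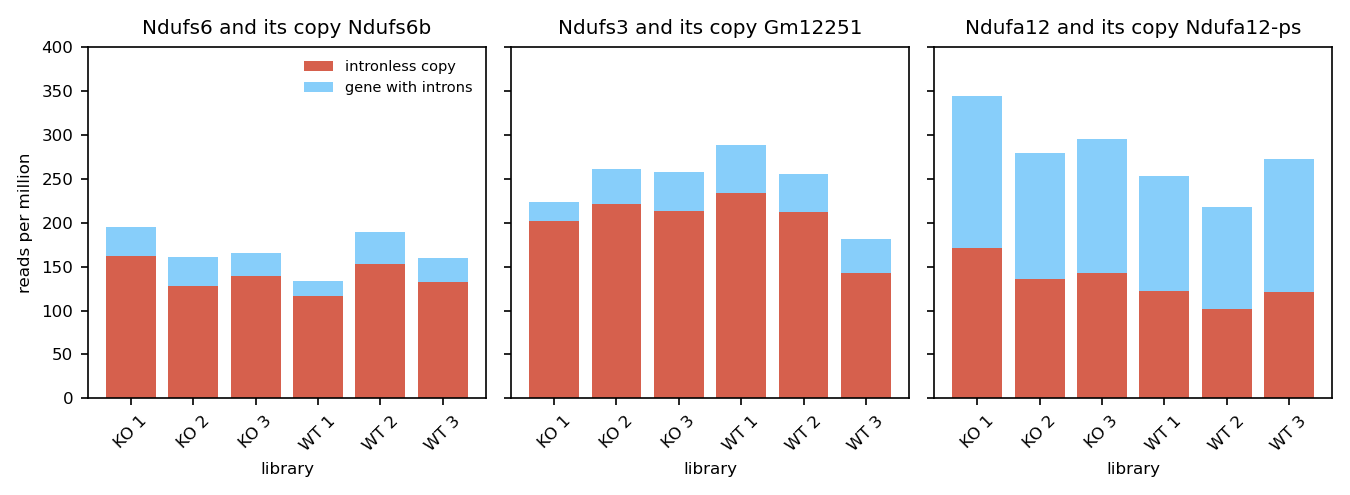
RPM, reads scaled to library size (vertical axis), in each of 3 Zcchc8 KO and 3 WT libraries, stacked as the intronless copy (red) and the gene with introns (light blue) for Ndufs6, Ndufs3 and Ndufa12. The copy holds 78.4% to 90.5% of the reads of the Ndufs6 and Ndufs3 pairs and 44.5% to 49.8% of the Ndufa12 pair.

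Annotated pseudogene copies, whole or in part, were common among complex I genes. The aligned part was 31.3% of the coding sequence for Ndufa13 and at most 61% for Ndufa1. Of the 44 coding members, 15 (34.1%) had an annotated pseudogene elsewhere in the genome with at least 90% identity over at least 100 coding bases, against 16.3% of the 10025 tested coding genes. Only 3 of the 44 (6.8%) had such a copy listed in the table, close to the 6.1% of tested coding genes. The rows of Ndufs5, Ndufab1 and Ndufb11, among others, thus have near-identical copies that are not analysed here, and their levels are uncertain to that extent.

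The N module, which takes electrons from NADH through a flavin and iron-sulfur clusters, had 8 of its 9 genes higher by value in KO and 1 lower, with a median log2 change of 0.17 and 0 passing. Ndufv2, a core subunit with an iron-sulfur cluster next to the flavin site, stood at 40.5, 43.1 and 48.5 FPKM in KO and at 33.9, 35.1 and 30.9 FPKM in WT. Every KO library was above every WT library, a ratio of means of 1.32 and the highest log2 change of the 46 genes at 0.39 (95% interval 0.06 to 0.73), without passing (limma adjusted p = 0.47). Ndufs1, the large core subunit that carries several iron-sulfur clusters, had 9.69, 9.09 and 12.2 FPKM in KO and 8.98, 8.64 and 8.27 FPKM in WT. Its groups did not overlap either, although the lowest KO and the highest WT library were close (log2 change 0.23, limma adjusted p = 0.80), and without KO library 3 the change was 0.11. Ndufv1, which binds NADH and the flavin, was the 1 gene of the module with a lower mean in KO, at 61.3, 50.3 and 52.2 FPKM against 64.4, 67.3 and 53.4 FPKM in WT, with overlapping groups. The accessory subunit gene Ndufa12 measured 110.2, 91.1 and 97.2 FPKM in KO and 83.1, 73.7 and 96.6 FPKM in WT, and Ndufa2, the second most abundant of the 46 rows, 331, 243 and 298 FPKM in KO and 255, 286 and 274 FPKM in WT. In both genes the groups overlapped. The log2 change of Ndufv1, -0.17, was -0.11 without WT library 2 and -0.27 without WT library 3, and that of Ndufa12, 0.24, was 0.15 without WT library 2. The remaining 4, Ndufs4, Ndufs6, Ndufv3 and Ndufa7, had log2 changes of 0.02 to 0.25.

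The Q module, where electrons reach ubiquinone, had 2 of 5 genes higher by value and 3 lower, with a median log2 change of -0.21 and 0 passing. Ndufs8, which relays electrons through iron-sulfur clusters, stood at 72.5, 81.0 and 61.6 FPKM in KO and 63.9, 64.6 and 66.2 FPKM in WT. The WT libraries lay inside the range of the KO libraries for this gene, whose log2 change of 0.13 was 0.04 without KO library 2 and 0.24 without KO library 3. Ndufs7, which carries the iron-sulfur cluster next to the ubiquinone site, had a lower mean in KO, at 41.0, 35.4 and 45.7 FPKM against 49.1, 51.0 and 41.5 FPKM in WT (log2 change -0.21, limma adjusted p = 0.73), and the change was -0.12 without KO library 2. Ndufs3 stood at 9.75, 18.3 and 20.2 FPKM in KO and 25.1, 20.1 and 18.0 FPKM in WT. Its log2 change of -0.42 rested largely on KO library 1, without which it was -0.11, and its copy Gm12251 did not follow it, at 255.6, 279.0 and 269.7 FPKM in KO and 294.9, 267.9 and 179.9 FPKM in WT. Ndufa5, an accessory subunit of the module, had a log2 change of -0.21. Whether the Q module differs from the N module was not tested.

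In the proximal membrane arm, which joins the Q module and holds the first proton channels, 6 of 8 genes were higher by value and 2 lower, with a median log2 change of 0.13 and 0 passing. Ndufa1, an X-linked subunit with a single membrane span, had 104.3, 147 and 148 FPKM in KO and 96.3, 101.2 and 107.5 FPKM in WT. KO libraries 2 and 3 were above all WT libraries and KO library 1 lay among them (log2 change 0.37, limma adjusted p = 0.50). Ndufa8, a subunit of the intermembrane space with paired cysteine motifs, stood at 259, 238 and 279 FPKM in KO and 260.1, 169.6 and 185.2 FPKM in WT. WT library 1 lay within the range of KO for this gene, and the log2 change was 0.36 (limma adjusted p = 0.53). Without WT library 1 the change of Ndufa8 was 0.54, and without WT library 2 it was 0.23. Ndufc1 was the gene of this arm whose groups did not overlap, at 11.7, 12.6 and 12.1 FPKM in KO and 10.3, 10.5 and 11.5 FPKM in WT, a ratio of means of 1.12. Ndufc2, Ndufs5 and Ndufa13 had log2 changes of 0.10, 0.22 and 0.01, and Ndufa3 and Ndufa10 of -0.12 and -0.09.

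The distal membrane arm, with the proton channels farthest from the ubiquinone site, had 7 of 9 genes higher by value and 2 lower, with a median log2 change of 0.12 and 0 passing. Ndufb6, an accessory subunit, had the smallest p of the 46 genes. It measured 158, 132 and 135 FPKM in KO and 115, 102 and 107 FPKM in WT, with every KO library above every WT library. The ratio of means was 1.31 and the log2 change 0.38 (95% interval 0.13 to 0.64, limma adjusted p = 0.33), and 289 other tested genes had a smaller p. Of the exon bases of Ndufb6, 39.0% are shared with Smim27 on the opposite strand, which averaged 8.42 FPKM over the 6 libraries, and the use of strand in counting is not given in the sources used here. In all, 13 of the 46 genes share exon bases with another gene of the table, 8 of them at least 5% of their bases. Ndufb9, which belongs to the family of LYR proteins that bind the mitochondrial acyl carrier, stood at 174, 207 and 182 FPKM in KO and 158, 176 and 135 FPKM in WT. Ndufb8 had 37.6, 47.7 and 46.2 FPKM in KO and 34.6, 39.0 and 30.1 FPKM in WT, and Ndufb7 had 46.6, 43.1 and 35.7 FPKM in KO and 32.5, 29.5 and 38.3 FPKM in WT. In these 3 genes the groups overlapped by 1 or more libraries, with log2 changes of 0.27, 0.33 and 0.31, the first of which was 0.17 without WT library 3. Ndufb10, Ndufb11 and Ndufb3 had log2 changes of 0.11 to 0.12 and Ndufb5 of -0.08.

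The lowest row of all was Ndufb2, another distal arm subunit, at 2.11, 0.0750 and 2.50 FPKM in KO and 1.68, 6.90 and 1.64 FPKM in WT. These values stand for 306, 8 and 293 reads in KO and 171, 710 and 175 reads in WT. KO library 2 was low and WT library 2 high, so the log2 change of -0.75 has a 95% interval of -2.09 to 0.58, and the direction of this gene is not resolved. The change was -0.21 without KO library 2 and -0.23 without WT library 2. It was -1.48 with a pseudocount of 0.1 and -1.60 with voom on recovered reads.

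Of the 5 subunits at the junction of modules or outside them, 4 were higher by value and 1 lower, with a median log2 change of 0.06 and 0 passing. Ndufa6, a LYR protein like Ndufb9, had 104.5, 113.1 and 97.0 FPKM in KO and 79.8, 92.0 and 90.3 FPKM in WT. The groups did not overlap, with a ratio of means of 1.20 and a log2 change of 0.26 (limma adjusted p = 0.55). Ndufab1, the mitochondrial acyl carrier that these LYR proteins bind, stood at 2.31, 6.01 and 7.58 FPKM in KO and 6.03, 4.39 and 5.91 FPKM in WT, with KO libraries at both ends of the range. Ndufa4, which is now counted with complex IV, had 120.0, 121.2 and 107.5 FPKM in KO and 111.5, 107.7 and 113.7 FPKM in WT, a log2 change of 0.06 with a 95% interval of -0.17 to 0.30. Ndufa11, a membrane arm subunit, measured 6.41, 12.8 and 9.63 FPKM in KO and 8.42, 9.26 and 9.64 FPKM in WT, with KO libraries again at both ends. Ndufa9, at the joint of the peripheral and membrane arms, had a log2 change of 0.23.

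Among the 8 Ndufaf genes, which encode assembly factors that leave the finished complex, 5 were higher by value and 3 lower, with a median log2 change of 0.16, 0 passing and 0 with groups that did not overlap. Ndufaf4, which acts with Ndufaf3 on early intermediates of the Q module, stood at 22.3, 19.6 and 23.5 FPKM in KO and 15.6, 16.2 and 21.3 FPKM in WT. KO library 2 lay below WT library 3 there, and the log2 change was 0.30 (limma adjusted p = 0.69). Ndufaf5, an enzyme that modifies Ndufs7, was low in all libraries, at 6.37, 3.68 and 3.52 FPKM in KO and 3.13, 4.12 and 3.04 FPKM in WT, with KO library 1 highest. Its log2 change of 0.29 was 0.06 without that library. Ndufaf2 is a paralogue of Ndufa12 that holds its place late in assembly. It stood at 27.4, 19.9 and 16.3 FPKM in KO and 23.2, 17.1 and 16.7 FPKM in WT. The level of the assembly factor was thus below that of the subunit Ndufa12 in every library. Of the exon bases of Ndufaf2, 65.6% are shared with B230220B15Rik on the opposite strand, which averaged 0.083 FPKM. The part of this overlap in the level of Ndufaf2 was not tested. The lowest change of the group was that of Ndufaf1, part of the membrane arm assembly complex, at 34.4, 24.1 and 44.5 FPKM in KO and 44.3, 31.7 and 54.4 FPKM in WT (log2 change -0.34). Ndufaf3, Ndufaf8, Ndufaf6 and Ndufaf7 had log2 changes of 0.20, 0.18, -0.07 and -0.11.

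**Figure D2:**
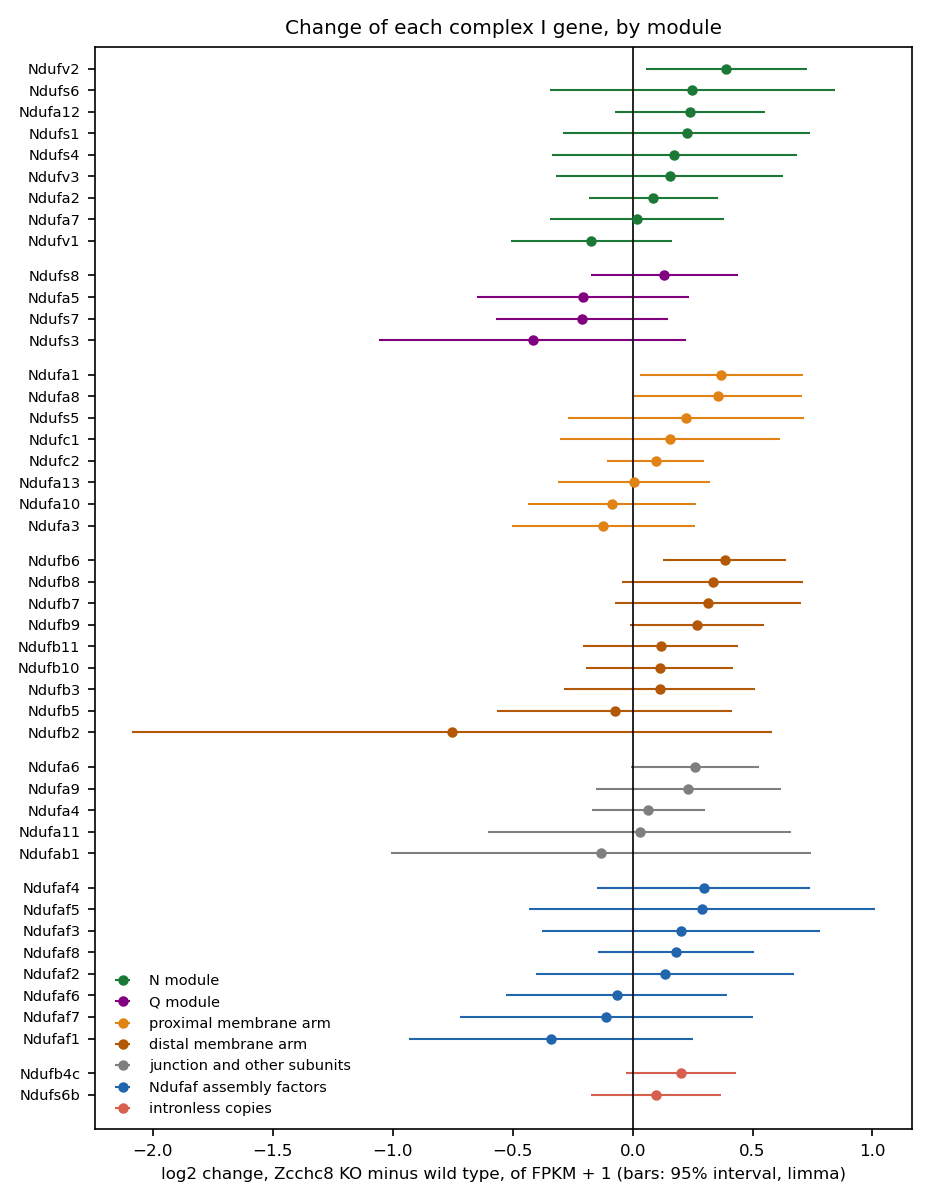
Log2 change of FPKM + 1, Zcchc8 KO minus WT (horizontal axis), of each of 45 genes, grouped and coloured by module, with the 95% interval from limma as bars (n = 3 libraries each). Points lie right of 0 for 33 of these genes and left for 12, and the widest interval is that of Ndufb2.

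The precision of these comparisons differed between genes. The 95% interval reached to either side of the log2 change by 0.20 at the narrowest, by 0.38 in the median gene and by 1.34 at the widest. For 42 of the 46 genes the interval lay within -1 and 1, so that a doubling or halving of FPKM + 1 was outside it, and for 22 it lay within a change of 1.5-fold in either direction. The 4 with wider reach were Ndufs3, Ndufb2, Ndufaf5 and Ndufab1. The median SD within a group was 0.18 log2 units for the complex I genes and 0.34 for all tested genes, whose median level was lower. The lowest read number of a member in any library was the 8 reads of Ndufb2, and the median over members of the lowest library was 1126 reads. Reads carry no molecular identifiers and come from amplified cDNA of few cells, so they are not independent molecules.

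Levels spanned a ratio of 160.3 between the highest and the lowest row. Means over the 6 libraries were above 100 FPKM for 11 genes, between 10 and 100 for 29 and below 10 for 6, and the median gene stood at 38.1 FPKM, above 84.8% of all tested genes. The 4 highest rows were Ndufs6b (398 FPKM), Ndufa2 (281), Ndufa8 (232) and Ndufb4c (228), of which Ndufs6b and Ndufb4c are the intronless copies. Ndufs6b measured 466, 368 and 401 FPKM in KO and 337, 439 and 379 FPKM in WT, while Ndufb4c had 222, 252 and 258 FPKM in KO and 195, 211 and 231 FPKM in WT. The groups overlapped for both copies, with log2 changes of 0.10 and 0.20 (limma adjusted p = 0.85 and 0.59). That of Ndufs6b was 0.005 without KO library 1 or without WT library 1, 0.18 without KO library 2, 0.20 without WT library 2, 0.06 with TPM and 0.03 with quantile normalization. The 4 lowest rows were Ndufb2 (2.49 FPKM), Ndufaf5 (3.98), Ndufab1 (5.37) and Ndufa11 (9.37). FPKM divides by the length of all annotated exons of a gene, and the level was lower for longer ones over the 44 coding members (Spearman rho -0.55, a description across genes). With the number of exons the rho was -0.33. The annotated exons of Ndufab1 cover 6883 bases and those of Ndufb2 5628 bases, against 419 bases for Ndufa1. The parts of annotated length and of exon number in the order of levels were not tested.

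**Figure D3:**
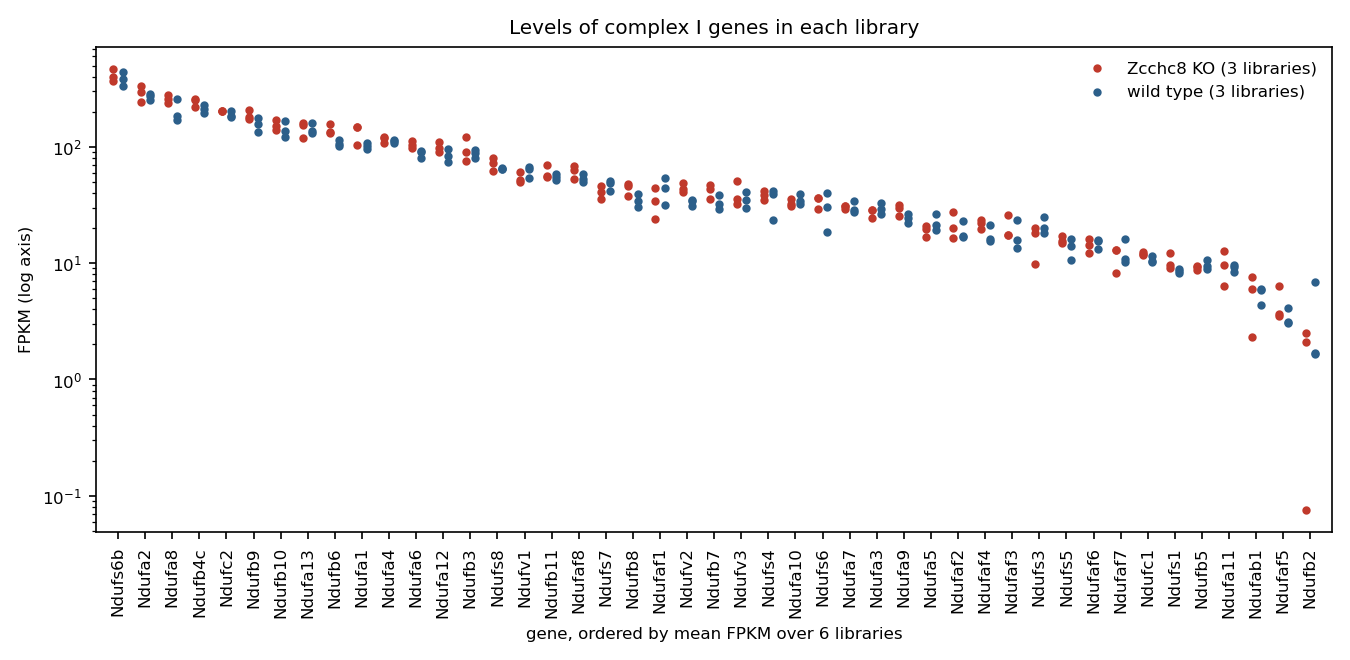
FPKM on a log axis (vertical) of 45 genes, ordered by mean from left to right, with a point for each of 3 Zcchc8 KO (red) and 3 WT (blue) libraries. Values of both genotypes intermingle for most genes, and the single low point at 0.0750 FPKM is Ndufb2 in KO library 2.

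Taken library by library, the summed level of the 46 genes was 3604, 3405 and 3602 FPKM in the KO libraries and 3188, 3229 and 3145 FPKM in the WT libraries, without overlap. Over the 44 coding genes alone it was 2916, 2785 and 2943 FPKM in KO and 2656, 2579 and 2535 FPKM in WT. The sum of all 46 was 0.590%, 0.570% and 0.593% of the summed FPKM of all genes in KO and 0.536%, 0.550% and 0.533% in WT. The median deviation of the genes from their own mean over the 6 libraries was 0.04, 0.04 and 0.09 log2 units in KO and -0.07, -0.07 and -0.07 in WT, while over all tested genes it lay between 0.01 and 0.03 in every library. Of the 46 genes 27, 30 and 33 were above their own mean in KO and 18, 18 and 17 in WT. These sums and medians describe genes chosen with earlier results known and were not tested. In bulk RNA of sorted cells, fewer cells of a type and less RNA per cell cannot be told apart.

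**Figure D4:**
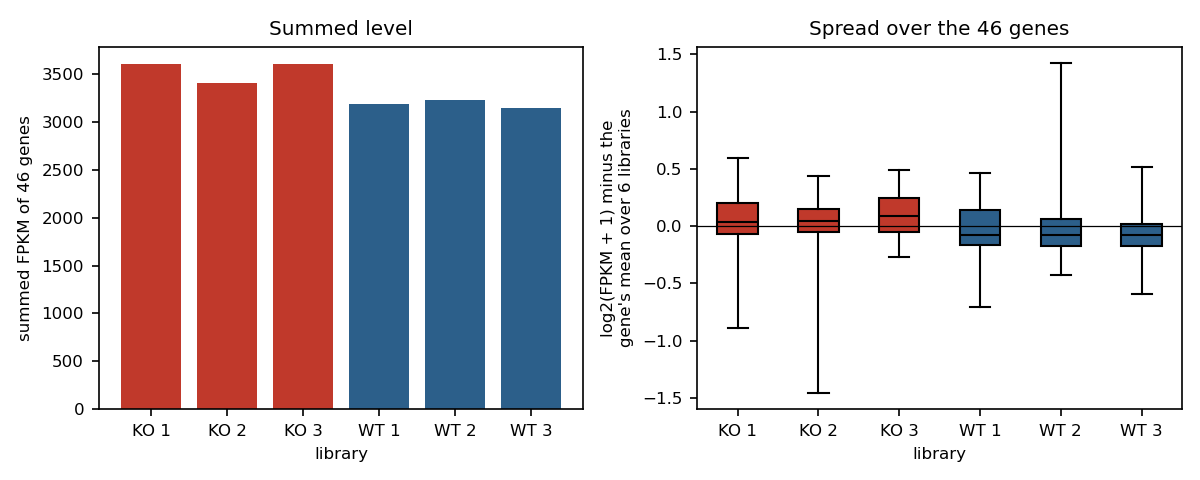
Left, summed FPKM of the 46 genes in each library (bars from 0); right, log2(FPKM + 1) of each gene minus its mean over the 6 libraries, as boxes (quartiles and median) with whiskers to the lowest and highest gene. Sums are 3405 to 3604 in the KO libraries (red) and 3145 to 3229 in the WT libraries (blue), and all 3 KO medians are above 0 and all 3 WT medians below.

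Markers of the labelled cell type and of other blood cells differed between the same libraries. All 10 stem cell markers were in the table, with a summed level of 340.4 to 398.5 FPKM in KO and 447 to 500.0 FPKM in WT. Other lists were higher in KO in sum, with 416 to 440 FPKM in KO and 106 to 142 FPKM in WT for 7 of 7 erythroid markers. Here and below, such counts give the markers found in the table, not those that were higher. A sum is set mostly by its most abundant markers, and values of single markers are not given here. The sums were 161 to 205 FPKM in KO and 0.116 to 1.02 FPKM in WT for 4 of 4 eosinophil markers, and 3593 to 4008 FPKM in KO and 2687 to 2892 FPKM in WT for 7 of 7 neutrophil markers. The same held for 4 of 5 T and NK cell markers (310.2 to 323 FPKM in KO, 189 to 232 FPKM in WT), 4 of 6 of monocytes and dendritic cells (238 to 276 FPKM in KO, 119 to 149 FPKM in WT) and 5 of 5 of megakaryocytes (345 to 389 FPKM in KO, 211 to 306 FPKM in WT). The 6 B cell markers were lower in sum, at 63.3 to 90.4 FPKM in KO and 804 to 918 FPKM in WT, and 2 of 4 endothelial and stromal markers were listed, with sums of 0.414 to 3.34 FPKM in KO and 0.312 to 0.675 FPKM in WT. No marker listed in the table was at 0 in all libraries of a group, and Cd3e, Csf1r, Ly86, Cdh5 and Col1a1 are not in the table used here. The part of these cells in the levels of complex I genes was not tested. Zcchc8 itself was at 10.4, 5.54 and 5.92 FPKM in KO and 8.93, 5.24 and 5.16 FPKM in WT (limma adjusted p = 0.94, exact two-sided permutation p = 0.5 with 0.1 the smallest that 3 against 3 libraries allow), so this table does not check the genotype labels, and directions are those of the libraries as labelled.

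Genes that work with complex I were read from further lists. Of 12 tested assembly factors with other names 6 were higher by value and 6 lower, with a median log2 change of 0.00. None passed, and 0 were at an unadjusted p of 0.05. The KO libraries lay wholly above the WT libraries for 0 of these genes and wholly below for 1. Over all tested genes these shares were 8.24% and 6.99%. Nubpl, which delivers iron-sulfur clusters to complex I, had the smallest p, at 3.15, 1.72 and 2.24 FPKM in KO and 1.03, 1.98 and 0.534 FPKM in WT. Tmem126a stood at 18.8, 18.0 and 26.4 FPKM in KO and 23.3, 42.9 and 22.1 FPKM in WT, and the groups overlapped in both genes.

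Of the 15 tested genes of mitochondrial iron-sulfur cluster supply, on which the peripheral arm depends, 1 rose, 0 fell and the median log2 change was 0.07. The KO libraries lay wholly above the WT libraries for 1 gene and wholly below for 1. Over all tested genes these shares were 8.24% and 6.99%. The gene that rose was Glrx5, a glutaredoxin that passes on new clusters, at 33.7, 29.6 and 23.2 FPKM in KO and 9.28, 9.89 and 6.54 FPKM in WT, a ratio of means of 3.37 (limma adjusted p = 0.034). Glrx5 was already known to pass when the list was written. Its values under the other settings are not given here. The part of erythroid or other blood cells in its change was not tested. Fdxr, the reductase that feeds electrons to cluster assembly, was next by p, at 6.65, 9.45 and 6.01 FPKM in KO and 12.6, 6.95 and 11.6 FPKM in WT, with overlapping groups.

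The list for complex II, another entry point of the chain, had 5 of 8 genes higher by value, 0 passing and a median log2 change of 0.11. At an unadjusted p of 0.05, 1 was higher and 0 lower, where 4.87% of all tested genes were higher and 4.33% lower. The KO libraries lay wholly above the WT libraries for 1 and wholly below for 0, where these shares were 8.24% and 6.99%. Sdhd, a membrane anchor of complex II, stood at 215, 195 and 217 FPKM in KO and 185, 157 and 181 FPKM in WT, without overlap (limma adjusted p = 0.48). The other anchor gene, Sdhc, had 54.1, 62.2 and 48.7 FPKM in KO and 37.9, 37.4 and 52.2 FPKM in WT, where WT library 3 lay within the range of KO. In complexes III, IV and V together, 0 of 37 tested genes passed. By value 28 were higher, with a median log2 change of 0.16, beside 34 of 46 and 0.13 for complex I. At an unadjusted p of 0.05, 7 of the 37 were higher and 0 lower, beside the 4.87% and 4.33% of all tested genes. The KO libraries lay wholly above the WT libraries for 9 and wholly below for 0, beside 8.24% and 6.99%. The difference between complexes was not tested. The genes of smallest p were Uqcrfs1 and Uqcr10 in complex III, with log2 changes of 0.40 and 0.26, Cox8a and Cox6b1 in complex IV, with 0.16 and 0.26, and Atp5b and Atp5pb in complex V, with 0.25 and 0.40.

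Of 12 tested regulators of mitochondrial biogenesis 9 were higher by value, 3 were lower and 0 passed, with a median log2 change of 0.21. At an unadjusted p of 0.05, 1 was higher and 0 lower, beside 4.87% and 4.33% of all tested genes. The KO libraries lay wholly above the WT libraries for 1 and wholly below for 0, beside 8.24% and 6.99%. Yy1, a zinc finger factor that binds many promoters of mitochondrial genes, stood at 9.51, 7.81 and 11.6 FPKM in KO and 3.91, 4.69 and 7.62 FPKM in WT. The groups did not overlap, though KO library 2 and WT library 3 were close, and the ratio of means was 1.79 (limma adjusted p = 0.50). Tfb1m, which methylates mitochondrial ribosomal RNA, was next, at 7.36, 4.11 and 7.72 FPKM in KO and 4.57, 2.39 and 3.59 FPKM in WT, with overlapping groups.

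Promoters were searched for 4 motifs known from genes of the respiratory chain, on both strands, in the 250 bases before and 50 bases after the start sites in RefSeq (GRCm38.p6), which had entries for 39 of the 46 genes. The letters AANATGGCG, a form of the YY1 motif, were in 8 of the 39 (20.5%), against 6.5% of the 8535 tested genes with an entry. The palindromic NRF1 motif was in 8 (20.5%, against 12.2%), CCGGAAG, the core bound by GABPA and other ETS factors, in 6 (15.4%, against 21.8%), and AAGGTCA, the core letters bound by oestrogen-related receptors, in 2 (5.1%, against 3.9%). The median log2 change was 0.16 for the genes with the YY1 letters and 0.11 for those without, and 0.26 with and 0.11 without for NRF1. For the ETS core it was 0.16 with and 0.12 without, and for the 2 genes with AAGGTCA it was lower, at -0.26 with and 0.13 without. These groups were not tested against each other, and the letters are a description and not a bound site.

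The 8 stretches with the YY1 letters are shown because the match recurs around the translation start, with the motif in capitals and up to 10 bases on each side, fewer where the promoter window ends. Each reads along the strand of its gene.
Ndufs7 (chr10:80249463-80249491, plus strand): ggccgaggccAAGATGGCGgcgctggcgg
Ndufc1 (chr3:51408915-51408943, minus strand): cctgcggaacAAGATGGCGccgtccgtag
Ndufa9 (chr6:126849097-126849125, minus strand): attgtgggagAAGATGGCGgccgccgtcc
Ndufs6 (chr13:73328433-73328459, minus strand): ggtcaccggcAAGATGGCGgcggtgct
Ndufs4 (chr13:114388045-114388069, minus strand): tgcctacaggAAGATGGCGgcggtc
Ndufa7 (chr17:33824617-33824645, plus strand): gagcggaaggAATATGGCGtccgctactc
Ndufaf8 (chr11:120098934-120098962, plus strand): ggcagggcccAAGATGGCGgcgccctcga
Ndufb11 (chrX:20617812-20617840, minus strand): tcaccaacacAAAATGGCGacgagaagag
In the 6 named first, from Ndufs7 to Ndufa7, the ATG inside the motif is an annotated start codon of the gene in GENCODE M21, and in Ndufaf8 and Ndufb11 it is not. All 8 matches lie on the strand of the gene.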

How the data were processed

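RNA-seq values of 6 LT-HSC libraries were used, 3 labelled Zcchc8 KO and 3 WT, grouped and numbered by their titles. The authors deposited 1 FPKM value for each gene symbol and library, and the submitters' processing notes name fastp, Bowtie2, featureCounts and mm10, without versions. Bowtie2 does not split reads over introns. Symbols were matched to GENCODE M21 for 14671 genes (97.9%). FPKM times exon length gave whole multiples of 1 step per library (98.7% within 0.05 of a whole number), and from these steps the depth, 18059320 to 25709662 reads, which was highest in KO library 1.

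Tests used genes whose mean FPKM was 1 or more, on log2(FPKM + 1), which understates changes of low genes, and were run in limma 3.58.1 (R 4.3.3) with a variance trend, two-sided. The fit was also run on simulated tables with known changes and independent normal noise. Such noise lacks effects shared within a library, and the outcome is not given here. Fold ratios are of mean FPKM. Copies were found with blastn 2.17.0. Members and lists were chosen with earlier results of these data known. Values per library are given by rule for the 12 members of smallest p, the 4 highest and 4 lowest, the core subunits, Ndufa12 with Ndufaf2, Ndufa4 (its planned partner Ndufa4l2 is not in the table used here), 2 genes of each other list and Zcchc8. Ndufc1, Ndufaf1 and the gene and copy pairs were added after their values were seen. The values of 1 member are not reported here, and it is left out of the plots of levels and changes, but it is in all counts and sums. The protein motifs planned were not searched. Alternatives changed pseudocount, filter, scaling, trend, block, model and libraries. Figures were drawn with matplotlib 3.10.9.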

Additional observations from a re-analysis of the deposited data

How the results depend on the processing

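None of the 46 complex I genes passed in limma under any of the 15 other settings, with a smallest adjusted p between 0.22 and 0.59. The median log2 change of 0.13 was 0.101 with TPM and 0.108 with quantile normalization, and between 0.093 and 0.165 without 1 library. Over all tested genes the median was -0.034 with TPM and 0.006 with quantile normalization, beside 0.002 in the main test. The number of genes higher by value stayed between 31 and 34. The 4 genes higher at an unadjusted p of 0.05 were 2 with TPM, quantile normalization and voom on recovered reads, 0 without the variance trend and 2 to 5 without 1 library, with 0 lower in each. The 27 calls over all genes were 8 without the trend, 11 with the replicate block, 8 with voom and 11 to 19 without 1 library. Same-numbered libraries hardly deviated together (correlations 0.024, 0.007 and 0.004). This cannot show whether they were paired in the experiment, which the labels do not say. No complex I gene passed with the replicate block. Of 25 named complex I genes 5 changed sign at some setting. Ndufa11 was -0.004 with TPM and -0.029 with voom, Ndufa4 was -0.003 with quantile normalization. Without 1 library, Ndufa11 ranged from -0.185 (without KO library 2) to 0.266, with -0.021 without WT library 1. Without KO library 1 the sign changed for Ndufa2 (-0.014, range to 0.209), Ndufaf2 (-0.059, range to 0.297), Ndufab1 (0.279, range from -0.41) and Zcchc8 (-0.108, range to 0.372). The cause was not tested. Ndufb2 had 306, 8 and 293 reads in the KO libraries and 171 to 710 in the WT libraries. The total depth of the WT libraries was no higher than that of KO library 2. The cause of the low count and of the wide spread of Ndufb2 was not tested.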
